A study of Mus musculus with 2 samples.

Results

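The ephrin-A and EphA genes described here are 10 genes, 3 ligands (*Efna2*, *Efna3*, *Efna5*) and 7 receptors (*Epha3*, *Epha4*, *Epha5*, *Epha6*, *Epha7*, *Epha8*, *Epha10*), picked by symbol from the 32285 genes listed in the count matrices. They were followed in single cells of the dorsal telencephalon of wild-type mouse embryos at embryonic day 14.5. Both libraries, called replicate 1 and replicate 3 after their labels, are controls of the EoMltt3 line, the strain given is C57BL/6 J, and no treatment is given. The labels give the tissue as brain hemispheres, and neither the sex nor the number of embryos pooled per library is given in the sources used here. The study asked which ligands of cortical interneurons meet receptors on the progenitors of the cortex. There was only 1 group, so each comparison was made between cell classes within these 2 libraries.

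Ephrin-As are ligands held in the outer membrane leaflet by a lipid anchor, and EphAs are receptor tyrosine kinases that bind them on a touching cell. Contact can signal into both cells and often ends in repulsion or detachment. In the developing cortex the family is known for axon guidance and the positioning of migrating neurons. Most EphA receptors bind several ephrin-As, and EphA4 also binds ephrin-Bs. EphA10 lacks an active kinase.

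Replicate 1 held 6163 barcodes with 64182006 unique molecular identifiers (UMIs, each counting 1 captured RNA molecule), and replicate 3 held 8870 barcodes with 93295807 UMIs. The median barcode held 9802 and 9754 UMIs, and 23 barcodes occurred in both libraries. After filters and doublet removal 5184 and 6952 cells were kept in 40 clusters, of which 11 (31.9% and 24.8% of kept cells) did not meet the marker rule for a name. Named clusters are called "-like" after their markers: radial glial cells (RGC), intermediate progenitors (IPC), newborn, callosal and corticofugal projection neurons, interneurons of the medial and caudal ganglionic eminence (MGE, CGE), lateral ganglionic eminence (LGE) cells and Cajal-Retzius cells. Meningeal-like, microglia-like, endothelial-like, pericyte-like, red blood cell-like and cortical hem and choroid plexus-like cells were also named, but were not among the classes compared. LGE-like cells were found only in replicate 1 (122 cells), and no cluster met the rule for subplate or lateral pallial neurons. The CGE-like class held 95 and 22 cells and the Cajal-Retzius-like class 37 and 87, so their levels rest on few cells. Levels are given as CPM, a gene's UMIs summed over a class in a replicate and scaled by all UMIs of that sum, replicate 1 first, and a smaller share of expressing cells cannot be told apart from less RNA per cell in such sums.

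Of the 10 genes, 8 passed the filter on low counts and entered the tests. *Epha8* had 29 UMIs in each replicate over all barcodes and *Epha10* had 58 and 75, and both failed it. *Epha5* was found in 87.9% and 88.3% of barcodes, *Epha3* in 70.5% and 66.8%, *Epha4* in 63.6% and 73.2% and *Epha7* in 49.5% and 51.0%. *Efna5* was found in 24.7% and 20.9%, *Efna2* in 19.2% and 16.8%, *Efna3* in 9.77% and 8.87%, and *Epha6* in 9.35% and 5.86%. Since 3′ counts also depend on transcript structure and capture, these shares describe detection and do not rank the genes by amount.

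The loci differ in size, as placed by RefSeq on GRCm38.p6, the build also named mm10. *Epha3* lies on the minus strand at chr16:63543532-63864175 and *Epha6* on the same strand at chr16:59641433-60610911, with 2.93 Mb between them. *Epha5* lies at chr5:84054761-84417818 (minus), *Epha4* at chr1:77367182-77515107 (minus) and *Epha7* at chr4:28813066-28967503 (plus). *Epha8* (chr4:136929419-136956859, minus) and *Epha10* (chr4:124881530-124917801, plus) share chromosome 4 with *Epha7*. The ligands lie at chr10:80179482-80190010 (*Efna2*, plus), chr3:89313899-89322939 (*Efna3*, minus) and chr17:62602957-62881317 (*Efna5*, minus).

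*Epha3* and *Efna3* had the largest log2 rises in the progenitor step described further on, so the 250 bases before their annotated starts are shown. They are read 5′ to 3′ on the gene's strand from RefSeq promoters of GRCm38.p6. Capitals mark CAGATG (or its reverse CATCTG), an E-box spelling that proneural bHLH factors can bind. For *Efna3* the start with the match is shown, at chr3:89322940-89323189, and for *Epha3* the sequence is chr16:63864176-63864425.
*Efna3*: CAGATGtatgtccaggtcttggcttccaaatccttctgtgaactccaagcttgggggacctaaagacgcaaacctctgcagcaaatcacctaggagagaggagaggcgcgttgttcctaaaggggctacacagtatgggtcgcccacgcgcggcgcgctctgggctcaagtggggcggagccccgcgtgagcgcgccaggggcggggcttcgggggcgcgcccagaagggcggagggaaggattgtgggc
*Epha3*: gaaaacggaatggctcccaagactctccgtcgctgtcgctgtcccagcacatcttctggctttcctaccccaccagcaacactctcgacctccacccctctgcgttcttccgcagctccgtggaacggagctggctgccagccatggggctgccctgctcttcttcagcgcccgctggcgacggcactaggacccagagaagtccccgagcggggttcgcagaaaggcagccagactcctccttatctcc
The *Efna3* sequence held the match 244 bases before the start and had 63.6% G and C, and the *Epha3* sequence held none and had 62.8%. On both strands, 2 of 12 promoters of the 10 genes held the match (*Efna3* and *Epha6*), against 4745 of 32851 promoters (14.4%) in the same window.

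**Figure D1:**
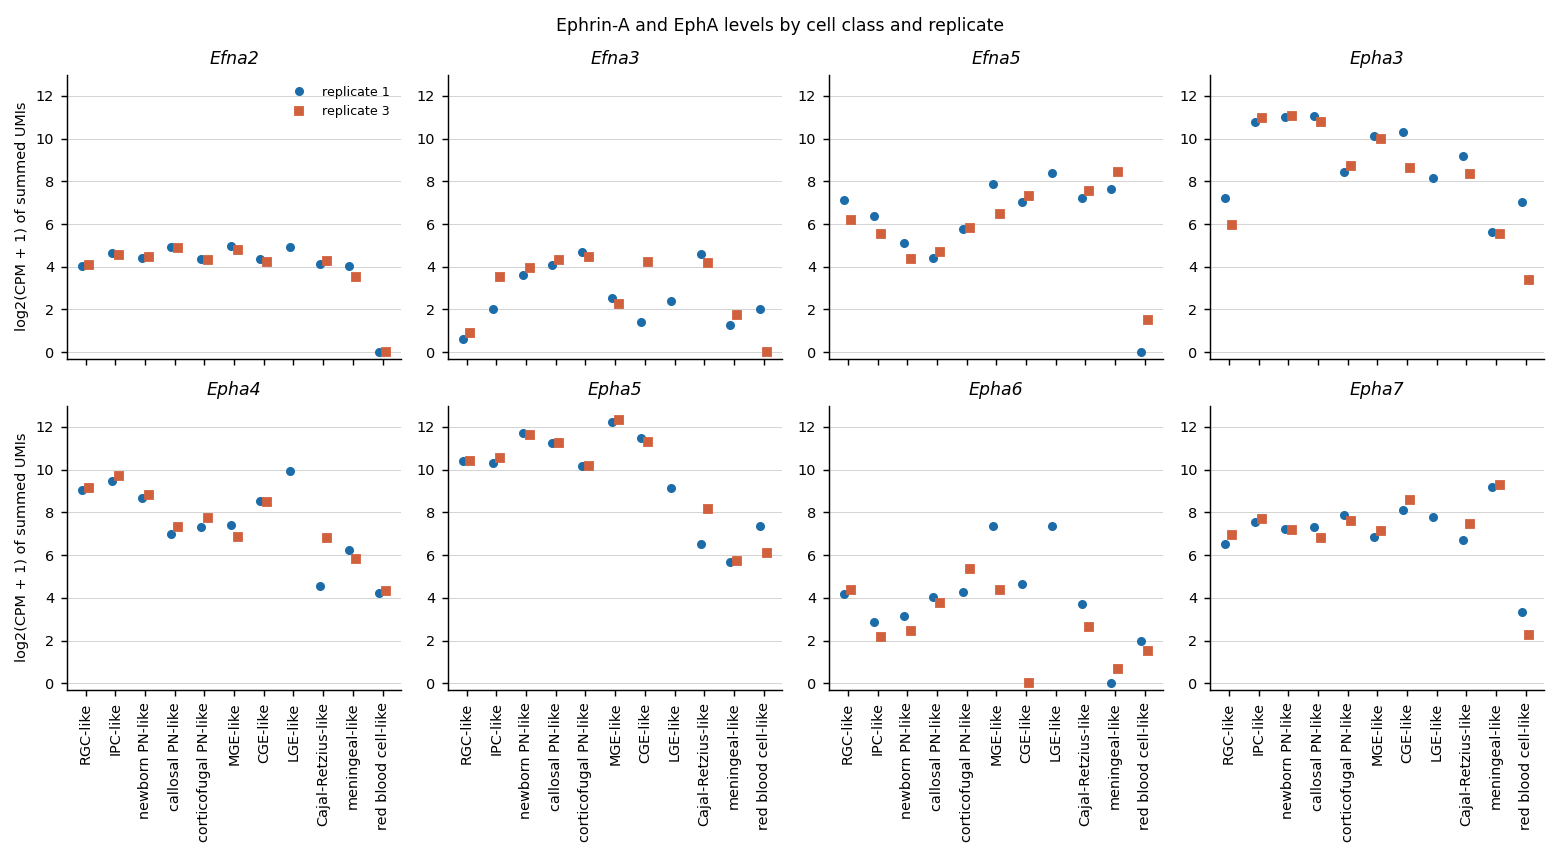
Level of the 8 tested genes in each cell class, as log2(CPM + 1), with replicate 1 as blue circles and replicate 3 as orange squares. *Epha3* stood at 60.3 to 147 CPM in RGC-like cells and at 1739.8 CPM or more in both replicates of IPC-like cells, while *Epha5* was highest in MGE-like interneurons in both replicates.

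Over the 8 compared classes, which leave out the meningeal-like and other non-neuronal classes, each receptor had its own order of mean levels. *Epha5* was highest in MGE-like interneurons (4924 ± 240.5 CPM, mean ± SD, n = 2), followed by newborn neurons (3239 ± 134), CGE-like interneurons (2680.2 ± 288) and callosal-like neurons (2434 ± 49.6). IPC-like and RGC-like cells overlapped below them, corticofugal-like neurons came next, and Cajal-Retzius-like cells were lowest. *Epha3* was highest in newborn and callosal-like neurons and IPC-like cells, which overlapped in turn, and lowest in RGC-like cells (104 ± 61.2 CPM). Its CGE-like level spanned 1280 and 397 CPM, which overlapped both the MGE-like and the Cajal-Retzius-like level.

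*Epha4* ran from IPC-like (772 ± 96.7 CPM) over RGC-like and newborn neuron-like to CGE-like cells with no overlap between neighbours. Corticofugal-like, callosal-like and MGE-like cells overlapped in turn below them, and Cajal-Retzius-like cells were lowest. *Epha7* was highest in CGE-like interneurons (331 ± 80.3 CPM), above corticofugal-like neurons and IPC-like cells, which overlapped each other. From newborn neurons down to RGC-like cells its levels, 91.7 to 177 CPM, overlapped in turn. *Epha6* was below 40 CPM in each class except MGE-like interneurons of replicate 1.

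Among the ligands, *Efna5* overlapped in turn from Cajal-Retzius-like cells over MGE-like, CGE-like, RGC-like and IPC-like to corticofugal-like cells (54.4 ± 0.242 CPM). Newborn and callosal-like neurons overlapped each other and lay below all of these, at 19.6 to 34.0 CPM. *Efna2* kept within 15.2 to 30.6 CPM over the 8 classes, highest in callosal-like neurons and MGE-like interneurons and lowest in RGC-like cells. *Efna3* was highest in corticofugal-like neurons and Cajal-Retzius-like cells, which overlapped, and lowest in RGC-like cells. *Epha8* had its highest level in Cajal-Retzius-like cells, at 4.57 and 4.28 CPM from 3 and 5 UMIs. *Epha10* stayed at 8.81 CPM or less, a level reached in CGE-like cells of replicate 3, where 1 of 22 cells held a UMI.

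Among progenitors, *Epha3* separated the IPC-like from the RGC-like class, and *Efna3* also differed between them, at a low level. IPCs are the daughters of RGCs that divide away from the ventricle and make projection neurons. *Epha3*, a receptor of ephrin-As, held 147 and 60.3 CPM in the RGC-like class and 1739.8 and 2000.7 CPM in IPC-like cells, which did not overlap. It rose by 4.18 ± 0.64 (SE, n = 2 per class) on the log2 scale (edgeR quasi-likelihood test, adjusted p = 3.43e-05), with 3.59 in replicate 1 alone and 5.04 in replicate 3 alone. Over 11 fits, the reported one and its alternatives, the rise ran from 2.505 to 4.51 and was called in each. *Efna3*, a ligand, was at 0.556 and 0.875 CPM in RGC-like and at 3.07 and 10.5 CPM in IPC-like cells. It rose by 2.58 ± 0.38 (adjusted p = 2.26e-05 in edgeR), and the size differed between replicates, at 1.60 and 3.03.

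The other called genes moved less in the step from RGC-like to IPC-like cells. *Epha7* went from 91.7 and 121 to 187 and 208 CPM (0.89 ± 0.31, adjusted p = 0.0322), and *Efna2* from 15.2 and 15.9 to 24.1 and 22.4 CPM (0.56 ± 0.20, adjusted p = 0.0347). *Epha6* was the 1 gene that fell, from 17.4 and 19.6 to 6.36 and 3.43 CPM, with a log2 fold change of -1.89 ± 0.56 (adjusted p = 0.0126 in edgeR). *Epha4*, the receptor with the broadest ligand binding, was at 525 and 556 CPM in RGC-like and 704 and 840 CPM in IPC-like cells, and missed the threshold (0.52 ± 0.31, adjusted p = 0.214). *Epha5* differed by 0.01 ± 0.40 and *Efna5* by -0.71 ± 0.50, both short of the threshold. In all 4 of 8 tested genes were called higher and 1 lower, against 14.7% higher and 19.7% lower among all 13040 genes tested, and their median log2 fold change was 0.54 against -0.07 over all genes. *Efna2* was lost without the count filter (adjusted p = 0.0702 in edgeR) and *Epha7* at clustering resolution 1.5 (0.175). DESeq2 did not call *Epha6* and *Epha7* (adjusted p = 0.0605 and 0.0701), and with predicted doublets kept these (0.0621 and 0.116) and *Efna3* (0.207) were lost in edgeR.

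*Epha3* was also high in a pair of clusters without a name. Cluster c10 showed all 12 RGC markers but was led by *Smoc1* and the IPC markers *Gadd45g* and *Neurog2*. It was left out of the RGC-like class. Its level was 902 and 765 CPM, between the RGC-like and the IPC-like levels. Cluster c8 held IPC markers but was led by *Cdh8* and *Unc5d*, with the newborn neuron markers *Neurod1* and *Nrn1* also among its top 10 genes, and was not counted as a progenitor class. It stood at 3511 and 4217 CPM, above each named class. Within the RGC-like class the 4 clusters ranged from 49.2 to 219 CPM in replicate 1 and from 38.1 to 86.7 CPM in replicate 3. The 9 newborn neuron markers, all with UMIs in RGC-like cells of both replicates, summed to 242 CPM in replicate 1 and 98.8 CPM in replicate 3, against 3253 and 3271 CPM in IPC-like cells. Their part in the RGC-like level of *Epha3* was not tested.

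The step from IPC-like cells to newborn projection neuron-like cells moved *Epha5*. *Epha5*, a receptor known from axon mapping, rose from 1253 and 1479 to 3333 and 3144 CPM (1.38 ± 0.41, adjusted p = 0.0157 in edgeR), without overlap. It was the only called gene of 8, where 12.5% of all genes were called higher and 12.5% lower (1632 and 1625, or 1256 and 2013 with library sizes in place of TMM). The call was lost at clustering resolution 0.6 (adjusted p = 0.0527 in edgeR). *Epha3* did not move past the threshold here, with 2094 and 2144 CPM in newborn neurons (0.31 ± 0.57). *Efna3* (11.1 and 14.6 CPM in newborn neurons) and *Epha4* (405 and 442 CPM) missed it with adjusted p of 0.0700 and 0.0966 in edgeR, and passed it with the replicate as a block (0.0392 and 0.0478). *Malat1*, a nuclear RNA, also differed, at 8704 and 10207 CPM in IPC-like and 14387 and 15016 CPM in newborn neuron-like cells, and its part was not tested.

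**Figure D2:**
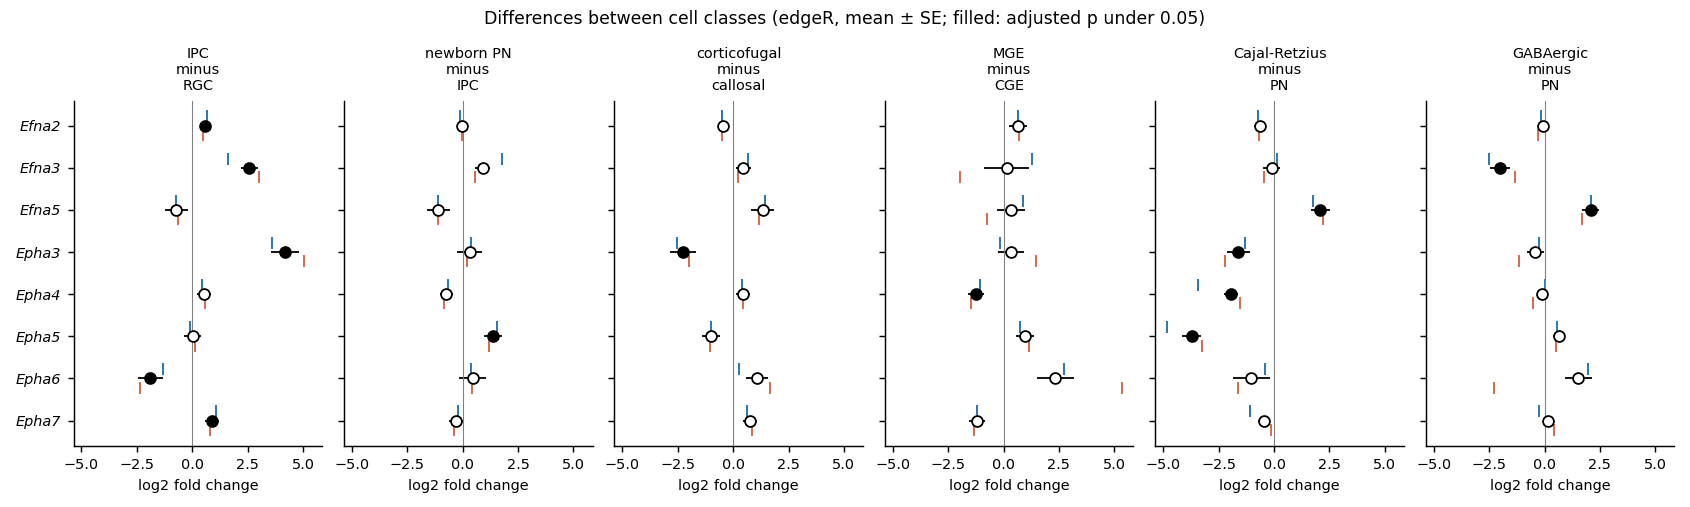
Log2 fold change of the 8 tested genes in 6 comparisons between classes, with dots and bars for the edgeR estimate ± SE, filled where the adjusted p was under 0.05, and blue and orange ticks for replicates 1 and 3 alone. *Epha3* lay at 4.18 in IPC-like against RGC-like cells and at -2.25 in corticofugal-like against callosal-like neurons.

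Between the callosal-like and corticofugal-like classes, *Epha3* was the gene called different. Callosal neurons send axons to the other hemisphere, and corticofugal neurons send them out of the cortex. *Epha3* was at 2114 and 1748 CPM in callosal-like and 348 and 423 CPM in corticofugal-like neurons, a fall with a log2 fold change of -2.25 ± 0.59 (adjusted p = 0.0113 in edgeR). In this comparison 8.85% of all genes were called higher and 7.14% lower, and *Epha3* was the only call among the 8 genes. *Epha5* (2399 and 2469 against 1142 and 1171 CPM) also did not overlap between the classes, with -1.0 ± 0.40 (adjusted p = 0.104 in edgeR). *Efna5*, a ligand known for repelling axons, stood at 20.3 and 24.8 CPM in callosal-like and 54.2 and 54.6 CPM in corticofugal-like neurons (1.33 ± 0.53, adjusted p = 0.102), and passed with the replicate block (adjusted p = 0.0438). *Epha7* was at 156 and 112 against 236 and 193 CPM (0.75 ± 0.31, adjusted p = 0.12). *Epha3* lost its call with predicted doublets kept (adjusted p = 0.0722) and at clustering resolution 0.6 (0.0572). The 9 newborn neuron markers summed to 2018 and 1780 CPM in callosal-like and 136 and 144 CPM in corticofugal-like neurons. The part of neuron age in these differences was not tested.

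The differences among all 15 projection neuron clusters did not depend on their names. All 8 tested genes passed the edgeR test of any difference, where 59.1% of 12477 genes did, with adjusted p from 3.59e-12 for *Epha6* to 0.00803 for *Efna2*. Highest and lowest here are by the mean of both replicates. The clusters came from the same cells, and the 10 genes were left out of the genes used to build them. *Epha3* was highest in p9 (3385 and 2548 CPM), led by *Tafa1* and *Tafa2*, and in p10 (2802 and 2782 CPM), a callosal-like cluster, although in replicate 3 p10 and p11 (2690 CPM) lay above p9. It was lowest in the corticofugal-like p2 (333 and 430 CPM), which overlapped p14 (399 and 406 CPM). *Epha5* was highest in the same pair, at 4319 and 4348 CPM in p10 and 4344 and 4037 CPM in p9, and lowest in p6 (1059 and 1114 CPM), led by *Slit3*.

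The remaining receptors had other peaks among these clusters. *Epha4* was highest in p8, a newborn neuron-like cluster (537 and 574 CPM), which overlapped p15 (411 and 598 CPM), and lowest in p9 (80.3 and 52.9 CPM), which overlapped p4 (71.3 and 118 CPM) and where *Epha3* and *Epha5* were high. *Epha7* was highest in the corticofugal-like p14 (351 and 287 CPM) and lowest in p6 (42.0 and 40.0 CPM), which p15 of replicate 1 undercut (38.5 CPM). *Epha6* was highest in p9 (456 and 283 CPM) and next in p6 (242 and 169.9 CPM), and stood at 0.669 and 0.296 CPM in p4. In p9, 148 of 243 and 48 of 101 cells held a UMI of *Epha6*, and the 5 cells with most UMIs held 17.1% and 35.8% of them. In corticofugal-like neurons the 5 cells with most held 84.8% and 85.6%, so the class level there came from few cells.

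Among the ligands, *Efna5* peaked in p11, led by *Tfap2d* and *Fign*, at 623 CPM in replicate 1 but 93.2 CPM in replicate 3, below p14 (98.5 CPM) there, with p13 next by the mean at 201 and 68.2 CPM. It was lowest in p9, at 17.7 and 1.76 CPM, which overlapped p10 (14.3 and 20.3 CPM). *Efna3* was highest in p14 (30.7 and 23.6 CPM), which overlapped p7 (23.7 and 28.8 CPM).

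**Figure D3:**
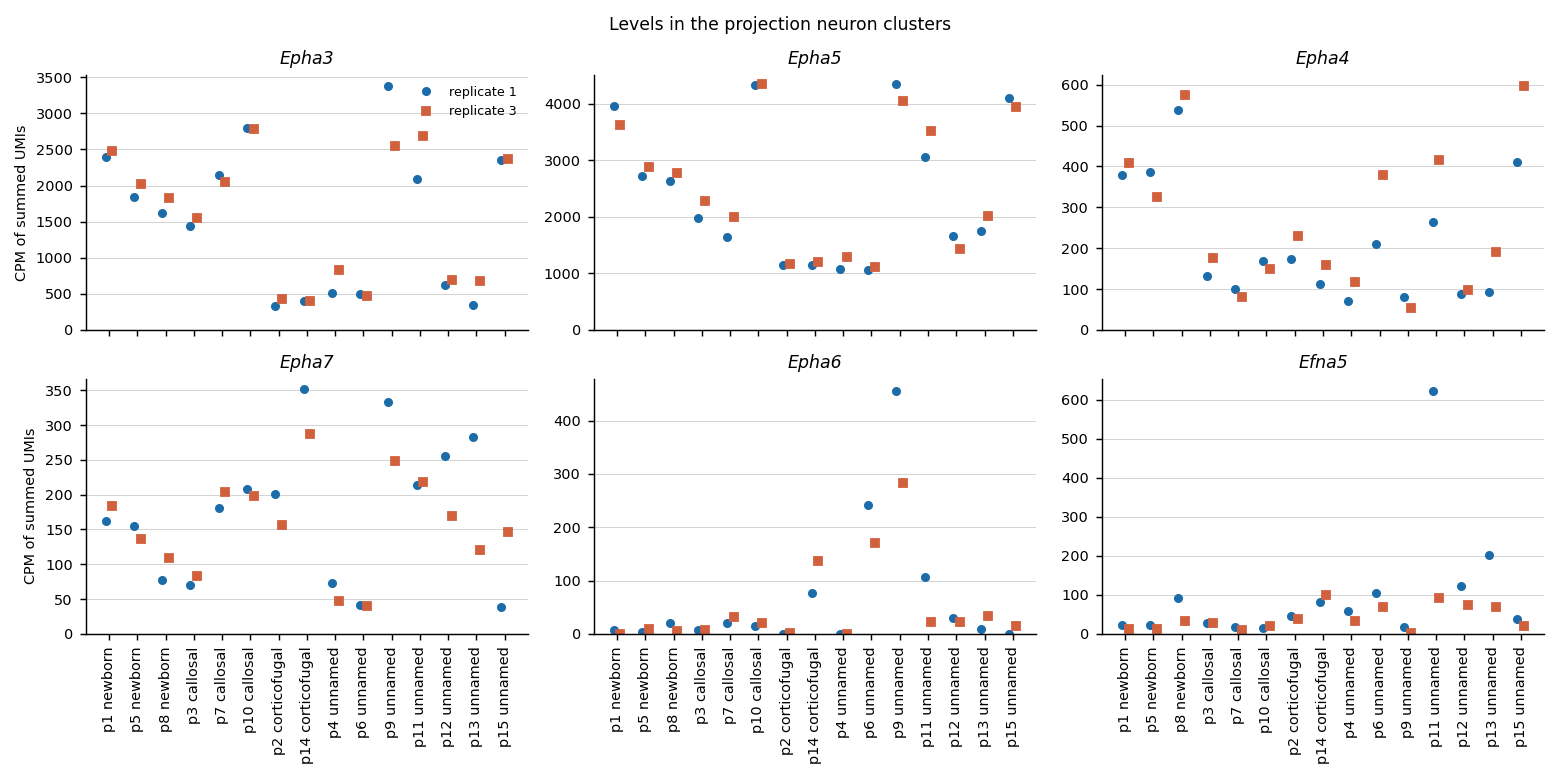
CPM of 6 genes over the 15 projection neuron clusters, with replicate 1 as blue circles and replicate 3 as orange squares. *Epha3* and *Epha5* were high in p9 and p10, *Epha6* in p9 and p6, and *Efna5* in p11 of replicate 1.

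The MGE-like and CGE-like classes differed in *Epha4*, with unlike levels among the CGE-like clusters. MGE-like interneurons stood at 168 and 116 CPM and CGE-like interneurons at 366 and 352 CPM, without overlap, and the level was lower in MGE-like cells by a log2 fold change of -1.24 ± 0.35 (adjusted p = 0.0398 in edgeR). It was the only call among the 8 genes, where 1.79% of all genes were called higher and 3.81% lower. *Epha7* ran the same way at 115 and 141 against 274 and 388 CPM (-1.21 ± 0.37, adjusted p = 0.0566), and passed with the replicate block (0.0439). *Epha5* was at 4754 and 5094 CPM in MGE-like and 2884 and 2476 CPM in CGE-like cells (0.97 ± 0.41, adjusted p = 0.218 in edgeR). *Epha6* was at 163 and 19.8 CPM in MGE-like cells and 24.5 and 0 CPM in CGE-like cells, with the 5 cells with most UMIs holding 39.4% and 76.2% of it in MGE-like cells. Cluster g5, led by *Galntl6*, *Cntn4* and *Sst*, held 80 of the 401 and 12 of the 219 MGE-like cells, and in it *Epha6* was at 489 and 66.6 CPM and *Efna5* at 539 and 216 CPM. The *Epha4* call was lost at clustering resolution 0.6 (adjusted p = 0.0538). The CGE-like level of *Epha4* came from unlike clusters. Cluster g10, led by *Dlx6os1* and *Sox2ot*, showed 5 of 10 CGE markers and 5 of 15 LGE markers, and g7 showed 8 of 10 and 2 of 15. In replicate 1 g10 held 34 of the 95 CGE-like cells at 546 CPM and g7 held 61 at 192 CPM, near the MGE-like class and below the MGE-like cluster g2 (380 CPM), while in replicate 3 g7 held 21 of 22 cells at 340 CPM.

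Within the 4 GABAergic clusters with at least 20 cells in each replicate, *Epha5*, *Epha7*, *Epha4* and *Epha3* differed, of 7 genes tested there, against 10.8% of 7217 genes. *Epha5* stood at 9575 and 10159 CPM in g2, 5729 and 5707 CPM in g1, 4639 and 2508 CPM in g7 and 2418 and 2006 CPM in g3 (adjusted p = 5.07e-06 in edgeR). Clusters g1, g2 and g3 were MGE-like and g7 was CGE-like. *Malat1* in them was at 24106 and 24306 (g1), 22965 and 25027 (g2) and 20556 and 20360 CPM (g3), and its part was not tested. *Epha7* was at 509 and 394 CPM in g7 and at 87.1 to 156 CPM in the others (adjusted p = 6.92e-06). *Epha3* was at 1582 and 1617 CPM in g2 and 545 and 569 CPM in g3 (adjusted p = 0.00226 in edgeR). *Epha4* was at 380 and 162 CPM in g2, 192 and 340 CPM in g7 and 54.1 and 8.85 CPM in g3 (adjusted p = 4.82e-04), and was not called by DESeq2 (adjusted p = 0.22). *Efna5* (adjusted p = 0.824) and *Efna2* (0.450) did not pass the edgeR test. *Epha6* passed only with the replicate block (0.334 without, 0.0451 with it).

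LGE-like cells had no second replicate, so their levels carry no test. *Epha4* stood at 996 CPM, *Efna5* at 335 CPM and *Epha6* at 165 CPM. *Epha7* was at 216 CPM, *Epha3* at 281 CPM and *Epha5* at 561 CPM. A UMI of *Epha6* was found in 14 of the 122 cells, and 5 cells held 81.2% of its UMIs.

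**Figure D4:**
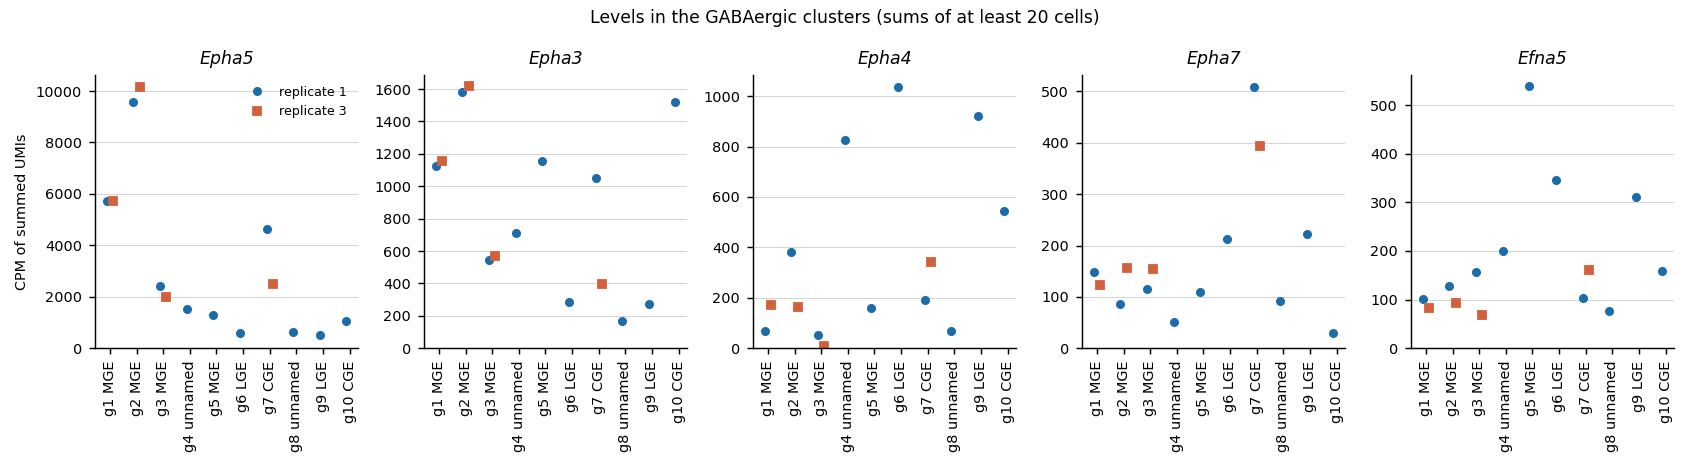
CPM of 5 genes over GABAergic clusters g1 to g10, for sums of at least 20 cells, with replicate 1 as blue circles and replicate 3 as orange squares. *Epha5* was highest in g2, at 9575 and 10159 CPM, and *Epha7* in g7, at 509 and 394 CPM.

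Against the named projection neuron classes, interneurons had *Efna5* higher and *Efna3* lower. The third ligand, *Efna2*, was not called in any of 11 fits (the reported one and 10 alternatives). The mean of the MGE-like and CGE-like coefficients was set against the mean of the newborn, callosal and corticofugal ones. Unnamed projection neuron clusters were left out, among them p11 and p13, which were highest in *Efna5* by the mean of both replicates. *Efna5* was at 237 and 87.6 CPM in MGE-like and 131 and 159 CPM in CGE-like cells, above each of the 3 projection neuron classes (19.6 to 54.6 CPM), and rose by 2.08 ± 0.39 (adjusted p = 2.47e-04 in edgeR). *Efna3* was at 4.88 and 3.77 CPM in MGE-like cells against 11.1 to 24.9 CPM in projection neurons, with a log2 fold change of -2.0 ± 0.46 (adjusted p = 0.00165). In replicate 3 the CGE-like level of *Efna3*, 17.6 CPM from 22 cells, lay within the projection neuron range, and replicate 3 alone gave -1.32. The interneuron levels of *Efna3* rest on few UMIs of that gene. Over all genes the sums held 2253852 and 1062087 UMIs in MGE-like and 612657 and 113482 UMIs in CGE-like cells. So 1 gene was called higher and 1 lower, against 17.1% and 19.8% of all genes, and with library sizes in place of TMM, or with DESeq2, the split was 3 higher and 1 lower. Over all genes those settings called 2894 higher and 1920 lower, and 3366 and 2038, in place of 2234 and 2584. *Epha5* missed the threshold (0.65 ± 0.26, adjusted p = 0.0527 in edgeR) but was called higher in 9 of the 11 fits, with the replicate block among them (0.0393). *Epha6* (1.53 ± 0.61, adjusted p = 0.0531 in edgeR) was called higher in 6 of the 11 fits and had opposite signs in the replicates, at 1.95 and -2.30. Interneuron-like cells held fewer UMIs per cell, with medians of 4001 to 4799.5 against 10206 to 12470 in the projection neuron classes. *Malat1* was at 21718 and 23114 CPM in MGE-like and 17037 and 23546 CPM in CGE-like cells, against 14238 to 18347 CPM, and the mitochondrial share was 3.68% to 5.40% against 2.70% to 3.92%. The 11 projection neuron markers summed to 1823 and 1874 CPM in MGE-like cells (11 of 11 with UMIs in both replicates) and 741 and 952 CPM in CGE-like cells (9 and 10 with UMIs), against 3447 to 5513 CPM in projection neurons. The part of these in the interneuron levels was not tested.

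Cajal-Retzius-like cells, early-born neurons of the marginal zone that secrete reelin, differed from projection neurons in 4 of the 8 tested genes. *Epha5* was at 91.4 and 288 CPM against 1142 to 3333 CPM in the 3 projection neuron classes (-3.73 ± 0.42, adjusted p = 8.31e-07 in edgeR), with -4.85 and -3.25 in the single replicates. *Epha4* was at 22.9 and 110 CPM against 126 to 442 CPM (-1.95 ± 0.31, adjusted p = 6.34e-05), with -3.44 in replicate 1 alone. *Epha3* was at 585 and 325 CPM against 348 to 2144 CPM, and lower than the mean of those classes (-1.62 ± 0.52, adjusted p = 0.0225 in edgeR), with -2.23 in replicate 3 alone. *Efna5* was the gene that rose, to 148 and 183 CPM (2.09 ± 0.43, adjusted p = 8.12e-04). So 1 gene was higher and 3 were lower of 8 tested, against 15.8% and 13.6% of all genes, with a median of -0.83 against -0.03. Over all genes 2056 were higher and 1767 lower, with library sizes 3236 and 982, and with DESeq2 2757 and 1505. The *Epha3* call was lost with library sizes in place of TMM (adjusted p = 0.0574) and without the cell filter (0.0725).

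Markers of meningeal cells, which lie against Cajal-Retzius cells, were present in that class in part. Of the 11 meningeal markers 5 and 4 had UMIs, summing to 65.5 and 89.9 CPM against 2.85 to 9.80 CPM in projection neurons, and *Col3a1*, *Lum*, *Foxc1*, *Foxd1* and *Aldh1a2* were at 0 in both replicates. Meningeal-like cells themselves held *Efna5* at 201 and 351 CPM and *Epha7* at 580.0 and 619 CPM, so the part of meningeal RNA in the *Efna5* level of Cajal-Retzius-like cells was not tested. In the same class the 10 GABAergic markers summed to 6.09 and 13.7 CPM, the 11 projection neuron markers to 760.1 and 667 CPM and the 12 RGC markers to 329 and 682 CPM. The 9 newborn neuron markers summed to 1139 and 1101 CPM, but *Nhlh2* among them is also a Cajal-Retzius marker and a top 10 gene of this class. The part of these markers in the levels was not tested.

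Shares of cells with a UMI were compared after thinning each cell to 2000 UMIs, with red blood cell-like cells (medians of 5303.5 and 4541 UMIs) as a type that should lack these genes. Background means these cells alone. Microglia-like cells were not used for it and held *Epha3* at 214 and 313 CPM and *Epha5* at 531 and 244 CPM. In red blood cell-like cells *Epha3* was at 129 and 9.37 CPM and *Epha5* at 165 and 67.5 CPM. The part of stray RNA in these levels was not tested. For *Epha3* the thinned share was 13.1% and 8.46% in RGC-like cells (28.8% and 25.5% unthinned) and 81.4% and 78.5% in IPC-like cells (91.1% and 87.6%). Newborn neurons reached 92.1% and 93.0% (98.8% and 99.0% unthinned), and corticofugal-like neurons 39.8% and 46.8% (76.5% and 80.0%). Red blood cell-like cells had 6.0% and 1.22%, with a Wilson upper bound of 16.2%, so the RGC-like share of *Epha3* was not above background. *Epha4* stood at 60.6% and 66.7% in RGC-like cells (96.2% and 97.8% unthinned) against 4.0% and 1.22% in red blood cell-like cells. *Epha5* was found in 18.9% and 31.0% of Cajal-Retzius-like cells (73.0% and 64.4% unthinned), against 96.5% and 98.0% of newborn neurons (99.6% and 99.8%) and 6.0% and 3.66% of red blood cell-like cells.

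*Efna5* reached 13.5% and 28.7% in Cajal-Retzius-like cells (59.5% and 60.9% unthinned), while red blood cell-like cells had 0 of 50 and 0 of 82, which allows shares of up to 6.0% and 3.66%. Over 8 classes and 10 genes, 28 of 80 shares lay above background in both replicates, 7 each for *Epha3*, *Epha5* and *Epha7*, 5 for *Epha4* and 2 for *Efna5*. No share of *Efna2*, *Efna3*, *Epha6*, *Epha8* or *Epha10* did at this depth.

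**Figure D5:**
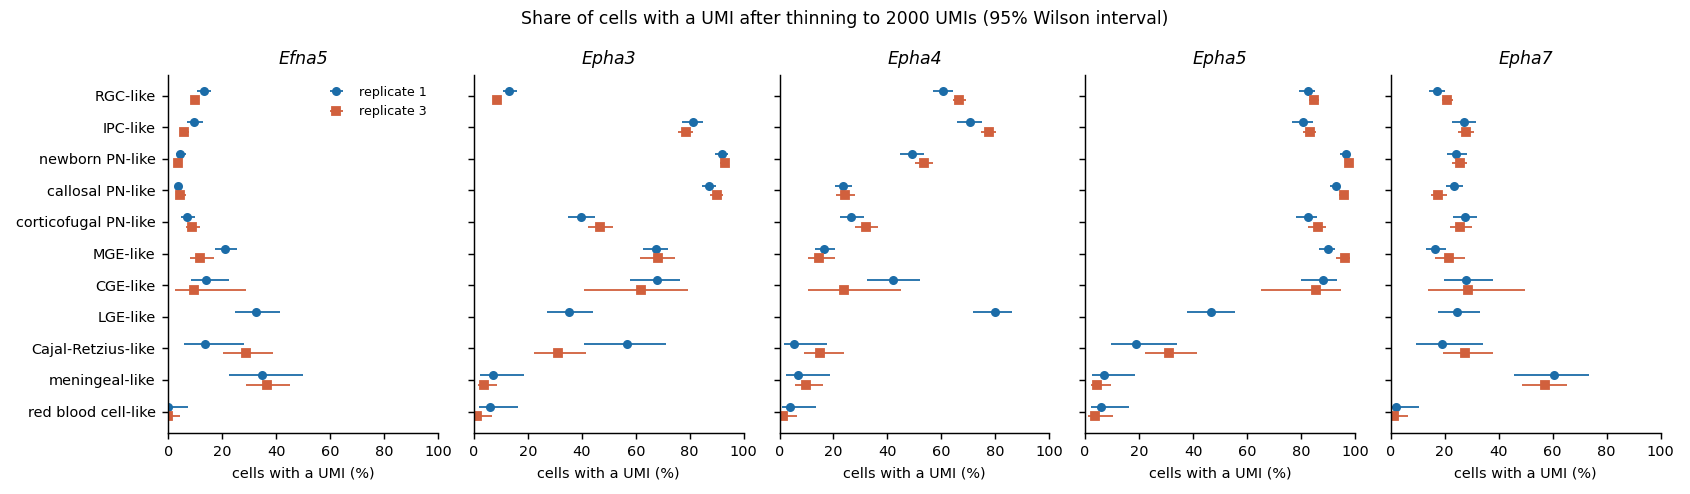
Share of cells with at least 1 UMI of 5 genes after thinning to 2000 UMIs, per class and replicate, with Wilson 95% intervals. The share for *Epha3* was 13.1% and 8.46% in RGC-like and 81.4% and 78.5% in IPC-like cells.

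By Pearson correlation of log2(CPM + 10) over 15 classes, the genes most like each member were listed as a description, since the classes share libraries. *Rbfox3* (r = 0.953), *Sox11* (0.937) and *Nkain3* (0.935) ran most like *Epha3*, and *Trim2* (0.920), *Cadps* (0.917) and *Phf21b* (0.911) most like *Epha5*. *Epha4* ran with *Pik3c2b* (0.893), *Epha7* with *Mmp16* (0.876), *Epha6* with *Chrm2* (0.913) and *Efna5* with *Osbpl1a* (0.842). *Epha3* and *Epha5* ran together at r = 0.875.

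The wider Eph family and its partners moved in their own ways. Of 11 tested genes among the other ephrins and Eph receptors, 2 were higher and 4 lower in IPC-like than in RGC-like cells (14.7% and 19.7% of all genes), led by *Ephb6* (2.37 ± 0.27, adjusted p = 1.32e-06 in edgeR), a receptor without active kinase, and *Ephb3* (-1.66, adjusted p = 0.00370). Newborn neurons had 1 higher and 3 lower (12.5% and 12.5% of all genes), with *Ephb1* at -2.82 and *Efnb2*, an ephrin-B ligand, at 1.51. Corticofugal-like against callosal-like neurons had 1 higher and 4 lower (8.85% and 7.14%), and *Ephb1* was at 5.09 ± 0.69 (adjusted p = 2.09e-05). MGE-like against CGE-like cells had 1 higher (*Efnb2*, 0.91) and 0 lower in edgeR (1.79% and 3.81%). Cajal-Retzius-like cells had 2 higher and 2 lower (15.8% and 13.6%), led by *Ephb6* (1.90), and interneurons 2 and 2 (17.1% and 19.8%), led by *Ephb3* (3.45). Of the Cajal-Retzius-like calls 3 went the same way in both replicates. A higher one had opposite signs in them, at -0.48 and 1.96.

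Of 20 tested partner genes, 5 were higher and 3 lower in IPC-like cells (14.7% and 19.7% of all genes), with *Chn2* at 2.38 ± 0.35 (adjusted p = 2.23e-05 in edgeR). *Chn2* encodes a GTPase-activating protein for Rac. Newborn neurons had 5 higher and 3 lower (12.5% and 12.5%), with *Nck1*, an adaptor, at -1.98 and *Vav3*, an exchange factor, at 1.88. Corticofugal-like neurons had 4 and 4 (8.85% and 7.14%), with *Ngfr*, a co-receptor of ephrin-As, at 4.77 ± 0.46 (adjusted p = 9.92e-07). In Cajal-Retzius-like cells 1 was higher and 12 lower, against 15.8% and 13.6% of all genes, with *Itsn1* at -2.01 and *Sipa1l1* at -1.95. The lower calls over all genes in that comparison went from 1767 to 982 with library sizes in place of TMM, and the partners were not counted under that scaling. Interneurons had 6 higher and 3 lower (17.1% and 19.8%), led by *Nck1* (2.35). No partner was called between MGE-like and CGE-like cells, where *Abl1* and *Abl2* had unadjusted p of 0.0384 and 0.0294 and adjusted p of 0.261 and 0.227 in edgeR.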

How the data were processed

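The authors dissociated the tissue with papain, made 3′ single-cell libraries (10x, v3.1 chemistry) and deposited a matrix of UMI counts per gene and barcode for each library, made with Cell Ranger 7.0.0 on build mm10 per the submitters' processing notes. The annotation and the intron setting are not given in the sources used here. The deposited UMI counts were not normalized. Barcodes outside 1500 to 60000 UMIs, or with 10% or more of them mitochondrial, were dropped, and predicted doublets were removed (4.93% and 7.10%). Variable genes (2000) were picked with scanpy 1.11.5, without the 10 members, 12 related genes and 22 partners. Cells were clustered on 30 components with the Leiden method in igraph 0.11.9 at resolution 1. Projection neuron and GABAergic cells were then clustered again. Names came from fixed marker lists and needed 3 markers, and for subtypes a margin of 0.15 in the share of markers over the next subtype. A cluster with more markers of another class than its own among its top 10 genes stayed unnamed. UMIs were summed per class or cluster and replicate where both held at least 20 cells, and tested with edgeR 4.0.16 (TMM, quasi-likelihood test, prior count 2, Benjamini-Hochberg over 13040 genes, threshold 0.05). The scripts were tested on simulated counts. DESeq2 1.42.0 and changes of filters, doublets, clustering and replicates were alternatives. Same-numbered sums come from the same library, which pairs them, and their replicate differences correlated at 0.304, 0.242, 0.166, 0.0464, 0.133 and 0.0402 over the 6 comparisons in the order of the text, with Cajal-Retzius-like cells before interneurons. All sums come from 2 libraries of 1 group, the labels do not tie either to a litter although the study's embryos came from several, and the p-values measure only the spread between these libraries. Library depth (64182006 and 93295807 UMIs) and the intervals given cover counting error only. All 10 members were named by rule, with the 3 largest called changes of 12 related genes and the 2 largest of 22 partners allowed beside them. The members and lists were chosen with earlier results of these data known. The subplate and LGE comparisons were dropped for lack of cells in both replicates.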

Additional observations from a re-analysis of the deposited data

Results flagged for a closer look

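Some levels outside the tested classes exceeded the highest level in the compared classes, and they carry no test. Unnamed cluster c8 held *Epha3* at 3511 and 4217 CPM, above the 2144 CPM of newborn projection neuron-like cells. Meningeal-like cells held *Epha7* at 580.0 and 619 CPM, above the 388 CPM of CGE-like interneurons. In replicate 1, LGE-like cells held *Epha4* at 996 CPM (highest compared level 840 CPM), *Efna5* at 335 CPM (237 CPM) and *Epha6* at 165 CPM (163 CPM). Cluster g8, led by *Adarb2* and *Pbx3*, held *Epha6* at 423 CPM in replicate 1. Cluster g4, led by *Dlx6os1*, held *Efna2* at 45.8 CPM in replicate 1, above the 30.6 CPM of MGE-like cells.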

How the results depend on the processing

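Of the 14 changes called for a gene in a comparison, 8 missed the threshold in at least 1 of the alternative fits and none turned direction, and in replicates 1 and 3 alone all 28 values kept their sign. Counts of called genes moved over 1.5 times as follows. From 5 in IPC-like against RGC-like cells, DESeq2 gave 3 and kept doublets 2. From 1 in newborn neurons against IPC-like cells, dropping the count filter gave 4, the replicate block 3, the stricter cell filter 2, kept doublets 3, resolution 1.5 2 and at least 50 cells 2. From 1 in corticofugal-like against callosal-like neurons, dropping the count filter gave 5, the replicate block 2, the stricter cell filter 2, no cell filter 3, kept doublets 2, resolution 0.6 0, resolution 1.5 2 and at least 50 cells 2. From 1 in MGE-like against CGE-like cells, library sizes gave 2, DESeq2 2, dropping the count filter 4, the replicate block 2, no cell filter 3, kept doublets 2, resolution 0.6 0 and resolution 1.5 2. From 2 in interneurons against projection neurons, library sizes gave 4, DESeq2 4, dropping the count filter 5, the stricter cell filter 4, resolution 0.6 4 and at least 50 cells 5. Without thinning 49 of 80 shares lay above background, against 22 at 1000 and 32 at 3000 UMIs. The replicate block added the calls named in the text and changed no other call. The cause of these moves was not tested. Library sizes shifted the median of all genes by 0.26 for Cajal-Retzius-like cells, 0.13 for interneurons and -0.11 for newborn neurons, and DESeq2 by 0.16 and 0.20 for the first 2.

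Direction reversed only for genes that were not called. *Epha5* in IPC-like against RGC-like cells was at -0.028 (DESeq2), -0.0038 (no count filter), -0.070 (stricter cell filter), -0.12 (doublets kept) and -0.13 (resolution 1.5). In newborn neurons *Efna2* was at 0.12 (stricter cell filter) and 0.12 (doublets kept), *Epha7* at 0.23, 0.75 and 0.080 (stricter cell filter, doublets kept, resolution 1.5; adjusted p = 0.0453 for the second in edgeR), and *Epha4* at 0.0077 (doublets kept). In corticofugal-like against callosal-like neurons *Epha6* was at -1.27 (stricter cell filter) and *Epha4* at -0.21 (resolution 0.6). In MGE-like against CGE-like cells *Efna2* was at -0.057, -0.091 and -0.026 (no cell filter, doublets kept, resolution 1.5), *Efna3* at -0.25 and -0.24 and *Efna5* at -0.17 and -0.025 (resolutions 0.6 and 1.5). In Cajal-Retzius-like cells *Efna3* was at 0.17 (library sizes) and 0.038 (DESeq2). In interneurons *Efna2* was at 0.075, 0.058, 0.062, 0.14, 0.10, 0.21 and 0.25 (library sizes, DESeq2, stricter and no cell filter, doublets kept, resolution 1.5, at least 50 cells), *Epha4* at 0.024, 0.019, 0.26, 0.27 and 0.30 (library sizes, DESeq2, no cell filter, doublets kept, resolution 1.5), *Epha7* at -0.60, -0.44 and -0.46 (stricter cell filter, doublets kept, at least 50 cells) and *Epha6* at -0.23 (no cell filter).

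Some alternatives gave no value: newborn neurons without the cell filter, MGE-like against CGE-like cells with the stricter cell filter or at least 50 cells, Cajal-Retzius-like cells at that minimum, and the cluster tests with 1 replicate left out. Depth limits the ligands *Efna2* and *Efna3* and the receptors *Epha6*, *Epha8* and *Epha10*, whose shares of cells lay within background at 2000 UMIs.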
